A study of Saccharomyces cerevisiae with 1 sample.

Results

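The RNAs described here are named box C/D small nucleolar RNAs (snoRNAs) of Saccharomyces cerevisiae. They guide ribose methylation of the 18S rRNA only and lie outside the SNR72 to SNR78 cluster. They were chosen by name, from the rRNA targets they are known for. SNR128 (U14) also fits this description but is not among the names, and is given apart below. Of the 9 RNAs named (SNR41, SNR53, SNR54, SNR55, SNR56, SNR57, SNR70, SNR79 and SNR87), 8 had a row among the 67 rows of the snoRNA table. SNR87 had no row and was not analysed here. The values come from 1 library of BY4742 cells without any tagged protein, grown to an OD of 0.6 in minimal medium with glucose and lacking tryptophan, cross-linked and taken through CRAC. CRAC recovers the RNA fragments that stay covalently bound to a tagged protein after UV irradiation of living cells, so the fragments from an untagged strain are the background of the purification. No replicate of this library and no HTP-Dbp6 library were analysed here, so the values carry no error and no test was run.

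A box C/D snoRNA holds a short stretch complementary to rRNA just upstream of a box D or D′ motif, and the protein Nop1, carried by the snoRNA, methylates the ribose of a fixed nucleotide within the duplex. The 18S rRNA belongs to the small ribosomal subunit, and the methylation is placed on the nascent pre-rRNA. Yeast snoRNAs are made from their own transcription units, from arrays that are cut into several snoRNAs, or from introns of protein-coding genes. SNR41 guides a pair of 18S sites. SNR53, SNR54, SNR55, SNR56, SNR57, SNR70 and SNR79 guide a site each, and that of SNR70 is in the decoding region.

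In this library the 18S-only guides were unevenly recovered, with SNR41 far above the others. SNR41 had 2160 hits per 1000000 reads (RPM) and was the 4th highest row of the table, between SNR75 with 2433 RPM and SNR52 with 1590 RPM. SNR56 followed with 554 RPM (rank 14), SNR54 with 394 RPM (rank 22) and SNR53 with 263 RPM (rank 29). The other members were in the lower part of the table, with 163 RPM for SNR57 (rank 38), 142 RPM for SNR55 (rank 42), 134 RPM for SNR79 (rank 43) and 77 RPM for SNR70 (rank 55, between SNR84 with 84 RPM and SNR80 with 74 RPM). The highest member thus had 28.1 times the hits of the lowest. The step from SNR41 to the next member, 3.90-fold, was the largest between neighbours in this order, and the remaining steps lay between 1.06-fold and 1.74-fold. SNR57, SNR55 and SNR79 were within 1.22-fold of each other. Without replicates, the order of neighbours this close has no spread to be read against.

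**Figure D1:**
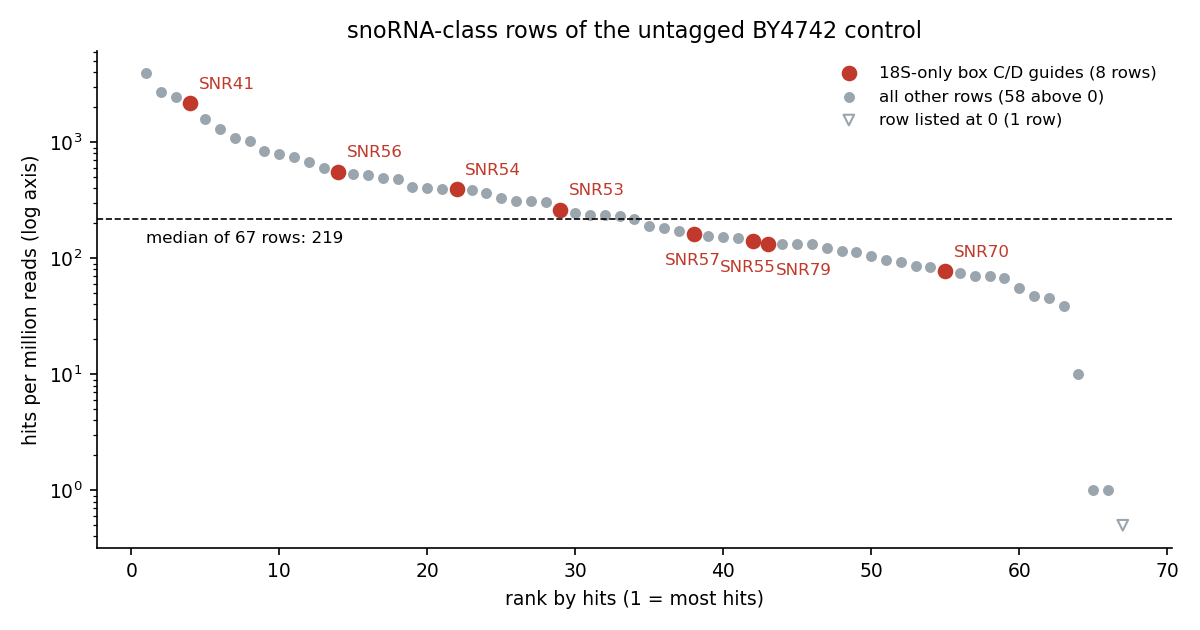
Hits per 1000000 reads (RPM, log axis) of all 67 rows of the snoRNA table in the untagged BY4742 control, ordered by rank, with the 8 rows of 18S-only guides in red and the row listed at 0 as an open triangle. SNR41 sits near the top of the curve at 2160 RPM. The other 7 members run from 554 RPM (rank 14) to 77 RPM (rank 55), on both sides of the table median of 219 RPM.

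Together the 8 members received 3887 RPM. This was 0.389% of all hits, 1.31% of the hits outside rRNA (which had 703741 RPM over the deposited classes) and 12.7% of the 30680 RPM of the snoRNA class, for 11.9% of the rows. SNR41 held 55.6% of the family's hits, and SNR41 with SNR56 held 69.8%. The lowest 4 members, SNR57, SNR55, SNR79 and SNR70, summed to 516 RPM, or 13.3% of the family. With SNR41 left out of the family and of the table, the other 7 members made up 6.06% of the remaining class hits for 10.6% of the remaining rows. The family's share of the class near its share of the rows therefore depended on SNR41. The median was 213 RPM over the 8 members and 219 RPM over the other 59 rows, and 4 of the 8 members lay above that median of the other rows. Over the 38 other box C/D rows alone the median was higher, at 320.5 RPM. On a log2 scale the members had an SD of 1.51, and the 37 other box C/D rows above 0 had an SD of 1.60. These SDs describe spread between RNAs and not between samples.

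The genes of the 18S-only guides are short, like those of other methylation guides. Gene lengths in the R64 annotation were 84 to 98 nt for 7 members and 164 nt for SNR70. The median was 89.5 nt for the family, 98 nt for the guides to both 18S and 25S, 97 nt for the guides to 25S only and 206.5 nt for the box H/ACA RNAs, which guide pseudouridylation. A longer RNA can give more fragments, so levels were also compared as RPM per 100 nt of gene. On this scale SNR41 had 2274, SNR56 had 629.5, SNR54 had 458 and SNR53 had 289 RPM per 100 nt. Below them, SNR57 had 185, SNR79 had 159.5, SNR55 had 145 and SNR70 had 47.0 RPM per 100 nt. SNR41 kept rank 4, and the other 7 members stood higher in the table than by RPM, by up to 9 ranks. SNR79 and SNR55 changed places. The median of RPM per 100 nt was 237 over the 8 members and 145 over the other 59 rows. Of the 8 members, 7 lay above the median of the other rows. SNR55 was all but level with it, at 144.898 against 144.872 RPM per 100 nt. Against the 38 other box C/D rows alone, whose median was 270 RPM per 100 nt, the family's median was lower. SNR70 was the one member below the median of the other 59 rows. It has the longest gene of the family and the fewest hits, and its distance from SNR41 widened from 28.1-fold in RPM to 48.4-fold per length.

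**Figure D2:**
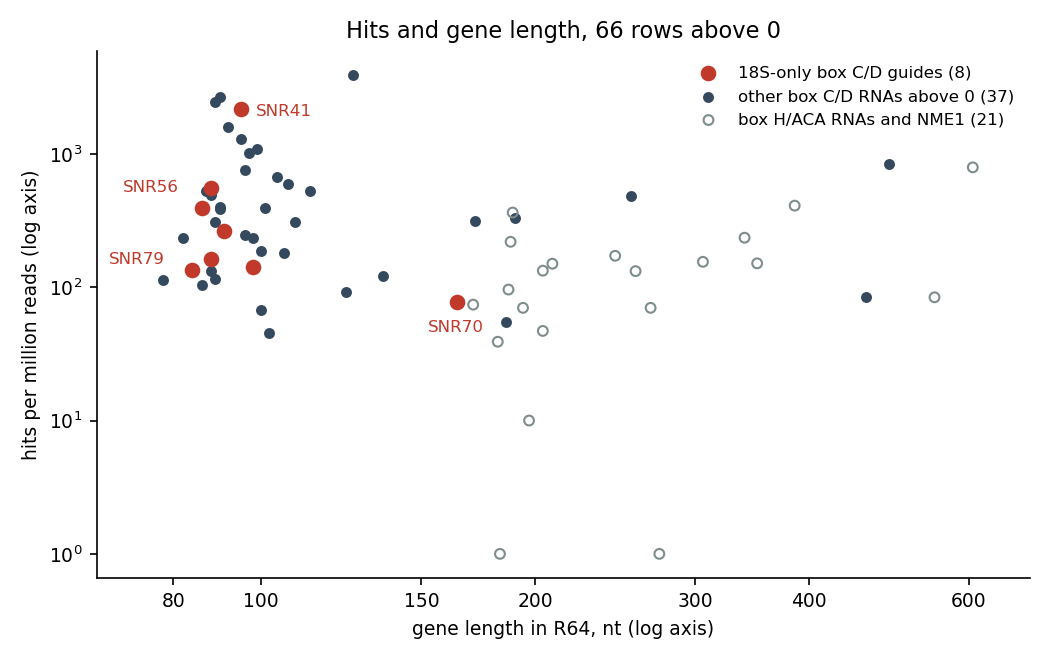
Hits per 1000000 reads (RPM) against gene length in nt (both axes logarithmic) for the 66 rows above 0, with 18S-only guides in red, other box C/D RNAs as filled dark points and box H/ACA RNAs with NME1, the RNA of RNase MRP, as open circles. Of the red points, 7 share the narrow range of 84 to 98 nt while their hits run from 134 to 2160 RPM, and SNR70 stands apart at 164 nt and 77 RPM.

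By their annotated positions, SNR41 and SNR70 lie in the same array on the minus strand of chromosome XVI. In the direction of transcription the order is SNR41 (719148 to 719242), SNR70 (718887 to 719050) and SNR51 (718700 to 718806). The genes are 97 and 80 nt apart. The highest and the lowest member of the family were therefore neighbours in this array. They are known to share a precursor, which the gene positions alone do not show. SNR41 had 2160 RPM and SNR70 had 77 RPM. SNR51, the last gene of the array, which guides sites in both 18S and 25S and so is no member, had 596 RPM. SNR41 held 76.2% of the array's 2833 RPM, SNR51 held 21.0% and SNR70 held 2.72%. SNR51 exceeded SNR70 by 7.74-fold in RPM, so the middle gene of the array was lowest.

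SNR57 and SNR55 lie on the minus strand of chromosome XII, at 794937 to 795024 and 794697 to 794794, with SNR61 (794486 to 794575) behind them. In this array the members were alike and low. SNR55 had 142 RPM and SNR57 had 163 RPM, a ratio of 0.871 (0.782 per length). SNR61, a guide to 25S only, had 2690 RPM, which was 16.5 times the hits of SNR57 and 18.9 times those of SNR55. The members held 10.2% of the array's 2995 RPM. In the array of SNR41 and SNR70 the members held 79.0%, although the sums of both arrays differed by only 1.06-fold. The gene with most hits was the first of the SNR41 array and the last of the SNR57 array.

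SNR53 (chromosome V, plus strand, 61699 to 61789) follows SNR67 (61352 to 61433), a guide to 25S only, at a distance of 265 nt. This pair was even, with 263 RPM for SNR53 and 234 RPM for SNR67, and with 289 and 285 RPM per 100 nt. The range within it was 1.12-fold, against 28.1-fold in the SNR41 array and 18.9-fold in the SNR57 array. With a largest gap of 250 nt in place of the 500 nt used to define an array, SNR67 and SNR53 would not form one, and 2 arrays with members would be left. The 5 members in the 3 arrays received 2805 RPM, or 72.2% of the family's hits, most of it from SNR41. Their median was 163 RPM.

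**Figure D3:**
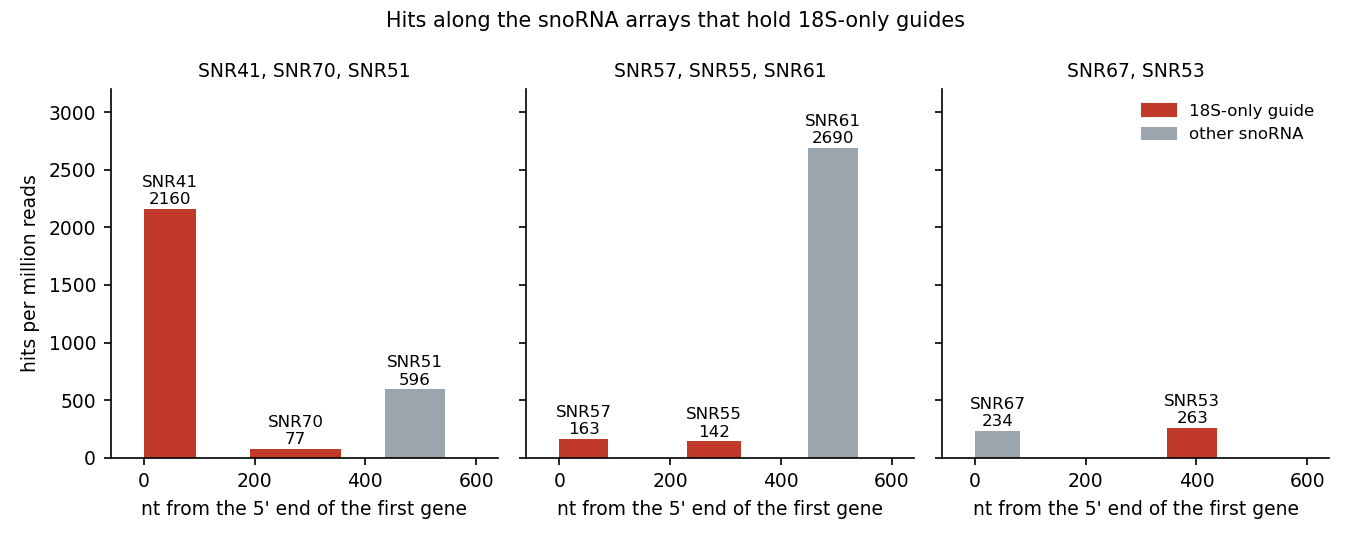
Hits per 1000000 reads (RPM, bars from 0) of the genes in the 3 arrays that hold 18S-only guides, placed by distance in nt from the 5′ end of the first gene, with bar width equal to gene length, 18S-only guides in red and other snoRNAs in grey. SNR41 at 2160 RPM stands beside SNR70 at 77 RPM in the first panel, SNR57 at 163 RPM and SNR55 at 142 RPM stand beside SNR61 at 2690 RPM in the second, and SNR53 and SNR67 are nearly level in the third.

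The other 3 members have no snoRNA beside them. SNR54 lies on the minus strand of chromosome XIII (163535 to 163620) inside IMD4 (162194 to 164176), a gene of GTP synthesis, and is known as an intronic snoRNA. How hits over both annotations were assigned is not given in the sources used here. Of the 7 rows whose genes lie inside a protein-coding gene on the same strand, SNR54 with 394 RPM was second. SNR38 inside TEF4 had 1300 RPM, SNR39 inside RPL7A had 307 RPM, and the lowest was SNR191 inside NOG2 with 1 RPM. SNR56 (chromosome II, plus strand, 88190 to 88277) and SNR79 (chromosome XII, minus strand, 348427 to 348510) stand alone, with 245 nt between SNR56 and RPS8A and 246 nt between SNR79 and SEN2 as their nearest genes. SNR56 had 554 RPM and SNR79 had 134 RPM, a ratio of 4.13, so these members differed as well.

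Ordered by their targets, the guides to the 5′ and central domains of the 18S rRNA (SNR41, SNR53, SNR54 and SNR79) received 2951 RPM, or 75.9% of the family's hits. Those to the 3′ domains (SNR55, SNR56, SNR57 and SNR70) received 936 RPM, or 24.1%. This order of the sums rested on SNR41. Without it, the other 3 guides to the 5′ and central domains summed to 791 RPM, less than the 936 RPM of the 4 guides to the 3′ domains. These sums are over unequal numbers of genes. By median the order stayed without SNR41, with 263 RPM for these 3 and 152.5 RPM for the 4 guides to the 3′ domains.

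The 18S-only guides were set beside the other snoRNA lists, with no test since there is 1 library. The box C/D RNAs that guide sites in both 18S and 25S were SNR52 with 1590 RPM, SNR47 with 1090 RPM, SNR40 with 1020 RPM and SNR51 with 596 RPM. SNR41 was above all 4 of them and the other 7 members were below all 4. The median was 213 RPM for the 18S-only guides and 1055 RPM for the guides to both subunits, so the guides to both subunits had a median 4.95 times that of the 18S-only guides. Per length this ratio was 4.54, and SNR56 with 629.5 RPM per 100 nt then exceeded SNR51 with 557.

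The guides to 25S only, with 26 rows against the family's 8, ran wider than the family at both ends. Their 26 rows had a median of 277 RPM and included SNR61 at 2690 RPM and SNR64, listed at 0. Of these 26, 2 had more hits than SNR41, 13 had more than SNR53 and 23 had more than SNR70. Per length the medians were 237 RPM per 100 nt for the 18S-only guides and 270 for the guides to 25S only. The 20 box H/ACA rows had a median of 114 RPM and of 47.0 RPM per 100 nt. Per length, SNR41, SNR56, SNR54 and SNR53 were above all 20 of them, and SNR57, SNR55 and SNR79 were above 19. SNR70 was above 10.

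**Figure D4:**
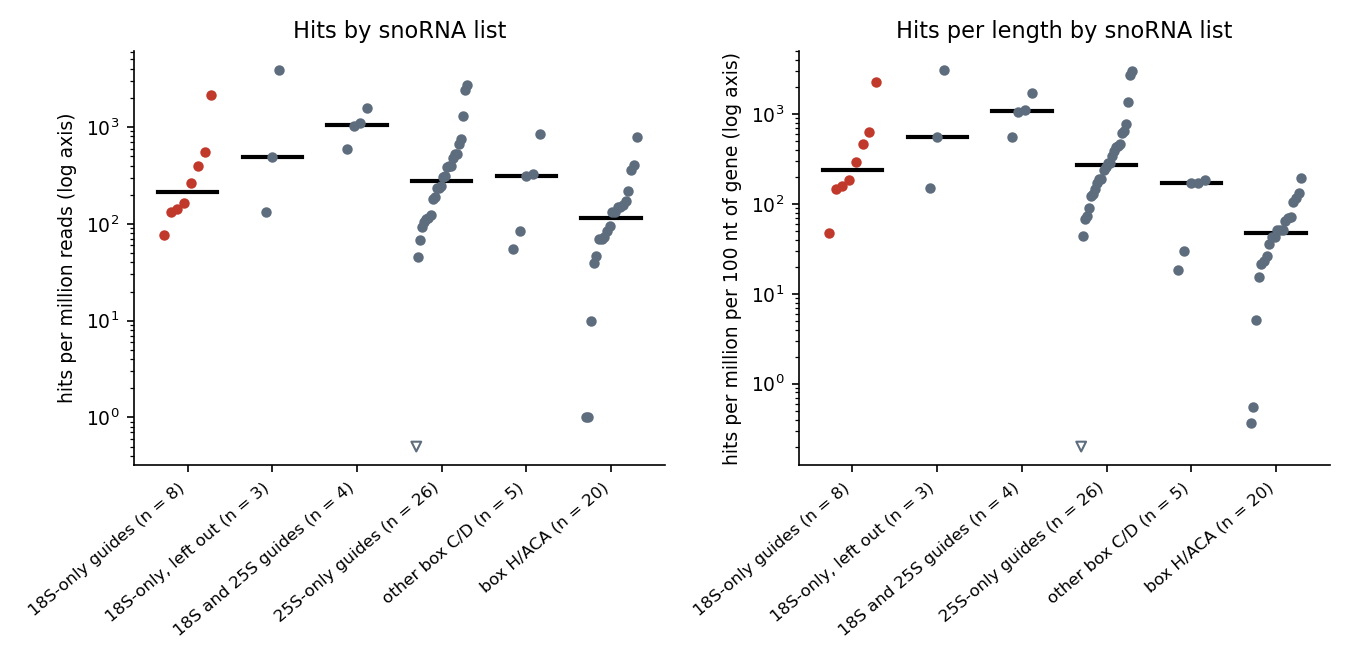
Hits per 1000000 reads (RPM, left) and RPM per 100 nt of gene (right), both on log axes, for the 8 18S-only guides in red and 5 other lists of the snoRNA class in grey. Points are RNAs, bars are medians and the open triangle is SNR64, listed at 0. All guides to both subunits lie above the median of the 18S-only guides, and SNR41 is the only member above all 4 of them in either panel.

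The 9 names leave out 3 further RNAs that guide methylation of 18S alone, of which SNR128 lies outside the SNR72 to SNR78 cluster. SNR128, or U14, which is also needed for pre-rRNA cleavage, had 3923 RPM and was the highest row of the table, with 1.82 times the hits of SNR41. SNR77 had 491 RPM and SNR74 had 132 RPM, both in the SNR72 to SNR78 cluster. SNR77 thus stood between SNR56 and SNR54, and SNR74 shortly below SNR79 with 134 RPM. With these 3 added, the 11 guides to 18S alone received 27.5% of the class hits, for 11 of the 67 rows.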

How the data were processed

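The data are 1 CRAC library of untagged BY4742 cells, made with 16 PCR cycles per the labels. The authors trimmed reads with Flexbar, aligned them with Novoalign (builds per the labels: R64) and counted hits with pyCRAC. Tool versions are not given in the sources used here. The deposited values are hits per 1000000 reads as whole numbers and were treated as a score, not as counts, since the counter was run with its option set at 1000000, and the sources do not state if that scales or caps the reads. The sequencing depth is unknown, so no interval or detection limit is given, and PCR copies are not independent molecules. The 67 rows of the snoRNA table sum to the stated class total of 30680, and the 6 classes sum to 1000000. The pileup of the 25S rRNA was not used.

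Members, lists and alternatives were chosen with earlier results of these data known. Rows were matched by symbol to RefSeq's R64 annotation (67 of 67), which gave lengths, strands and positions. Arrays are snoRNA genes on the same strand with gaps of at most 500 nt and no other gene between them. Lists by rRNA target came from general knowledge. The text names all members, their array neighbours and the rows next to the highest and the lowest member. It also names the 18S-only guides outside the named set, the guides to both subunits and the highest row. SNR64, SNR38, SNR39 and SNR191 were named after their values were seen. The functions were tested on simulated tables. Tables were handled with pandas 2.3.3 (numpy 2.4.6) under Python 3.11.15, and plots were drawn with matplotlib 3.10.9.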

Additional observations from a re-analysis of the deposited data

How the results depend on the processing

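Values are called different where any of the leading 3 significant digits changed, since no replicate gives a spread. No paired analysis was possible because only 1 library was analysed, and leaving out a replicate was not an option either. The search for guide elements was not run.

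The family's share of the class hits, 12.7%, was 12.8% without NME1 (the RNA of RNase MRP) in the total and 14.5% without SNR128. It was 14.3% over box C/D rows and 15.1% per length. The members were 11.9% of all rows and 17.4% of the box C/D rows, so over box C/D rows their share of hits was below their share of rows. It was 14.7% with SNR74 and SNR77 as members and 27.5% with SNR128 too. Without SNR41 as a member it was 5.63%, and 6.06% with SNR41 also out of the total, a setting chosen after seeing the data. The share of all hits, 0.389%, was 1.31% without rRNA.

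The median of 213 RPM was 263 RPM with SNR74, SNR77 and SNR128 added and 163 RPM without SNR41. The range of 28.1-fold was 48.4-fold per length, 16.1-fold without SNR70 and 7.19-fold without SNR41, the last chosen after seeing the data. Per length, SNR41 over SNR70 was likewise 48.4, and SNR55 over SNR57 was 0.782 in place of 0.871. The median of the guides to both subunits over that of the family, 4.95, was 4.54 per length (chosen after seeing the data). The median of the family over that of the other 59 rows turned per length (0.973 in RPM, 1.64 per length). The summed hits of the guides to the 5′ and central domains over those to the 3′ domains turned without SNR41 (3.15 with it, 0.845 without). Without SNR41 this sets a sum over 3 genes against a sum over 4. Both settings were chosen after seeing the data.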

Other observations

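With arrays defined on R64 gene positions by gaps of at most 500 nt, 5 arrays had a row in the table for every gene. They include the 3 that hold 18S-only guides. The 4 highest rows of the table, SNR128, SNR61, SNR75 and SNR41, lay in 4 different arrays, so each was necessarily the highest gene of its array. SNR128 held 92.3% of the hits of its array with SNR190, SNR61 held 89.8% beside SNR57 and SNR55, SNR41 held 76.2% beside SNR70 and SNR51, and SNR75 held 56.5% in the SNR72 to SNR78 cluster. The range of hits within these 4 arrays was between 12.0-fold and 28.1-fold in RPM, and the array of SNR41 had the widest. The remaining array, SNR67 with SNR53, had a range of 1.12-fold. These values were noticed after the table had been seen and come from 1 library, so they are given as a description only.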
